A study of Mus musculus with 3 samples.

Results

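The genes described here encode the proteins of the cornified cell envelope and their S100 neighbours, and all 63 of them lie on mouse chromosome 3. They were taken by symbol from a table of 44548 genes: every Lce, Sprr and numbered S100a gene, and Lor, Ivl, Flg, Flg2, Hrnr, Rptn, Tchh, Tchhl1, Crnn, Crct1, Kprp and Lelp1. By role they fell into 43 cornified envelope precursors, 7 S100 fused-type proteins and 13 S100 proteins. Messenger RNA was sequenced from 3 samples of 1 group of cells, which carried integrin alpha6 and lacked Sca1 (labelled Alpha6+/Sca1-). The cells came from the back skin of WT mice aged 56 days, in the second telogen, the resting phase of the hair cycle, and were released by trypsin and sorted alive. The labels give neither the number of mice in a sample nor their sex, name an antibody to integrin alpha6 only, and speak of biological duplicates although the samples are numbered 1 to 3, so each SD may be partly technical.

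As a keratinocyte leaves the basal layer it stops dividing, exchanges its keratins and finally builds a cornified envelope, a shell of proteins cross-linked by transglutaminases beneath the plasma membrane. Involucrin (Ivl) is laid down early as a scaffold, loricrin (Lor) later makes up most of the shell, small proline-rich (Sprr) proteins bridge other components, and late cornified envelope (Lce) proteins are added in the outermost living layers. Filaggrin (Flg) and related fused-type proteins join an S100 calcium-binding domain to long repeats, and most of the genes stand together in the epidermal differentiation complex. The S100 proteins themselves are small EF-hand calcium binders with functions in many cell types.

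The libraries held markers of several keratinocyte populations of the follicle. All 5 stem cell markers examined (Krt15, Cd34, Lhx2, Lgr5 and Sox9) were found, with a summed level of 20629 to 26819 TPM (TPM is the count per gene length, rescaled so that every library has the same total), of which Krt15 alone held 19607 to 25612 TPM. The 4 basal keratinocyte markers (Krt5, Krt14, Trp63 and Itgb4) summed to 19591 to 28870 TPM, and the 5 upper follicle markers (Krt79, Krt17, Defb6, Lrig1 and Lgr6), all found, to 3161 to 4659 TPM. Itga6, which encodes integrin alpha6, had 102, 120 and 112 TPM in replicates 1, 2 and 3, and Ly6a, which encodes Sca1, had 3.16, 11.6 and 8.99 TPM. The libraries held between 29283936 and 39198620 counts. Replicate 1 stands apart from the others in these data, with a median difference of 0.24 on the log2(TPM + 1) scale over 13663 genes with a mean of at least 1 TPM. The counts of members by replicate below are therefore given beside the same share of all genes.

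On GRCm38 the members span 3.05 Mb, from chr3:90511034 to chr3:93564643. S100 genes from S100a1 to S100a9 stand at one end, and a stretch of 1385 kb separates S100a9 from Lor. The Sprr genes follow between 92215799 and 92500493, then Ivl, Lce6a, the Lce1 genes from 92646535 to 92851286, the Lce3 genes, Crct1, Lce1m, the fused-type genes, and S100a11 and S100a10. In the annotation, 61 members are protein-coding, and Sprr2c-ps and Sprr2g are annotated as pseudogenes.

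Of the 63 members, 36 had a mean of at least 1 TPM, while 30.7% of all genes and 54.9% of protein-coding genes did. The detected members were 22 of 43 envelope precursors, 4 of 7 fused-type genes and 10 of 13 S100 genes. No count was found for 14 members in any library, against 49.9% of all genes. Among protein-coding genes alone, 13 of 61 members and 5505 of 21410 genes in all had no count. Just above 1 TPM lay S100a3, Flg, Lce1k and Sprr2h, with means of 3.59, 1.87, 1.83 and 1.36 TPM. Just below it lay Lce1g and Lce3c with 0.847 and 0.828 TPM, and Sprr2g and Lce3e with 0.428 and 0.392 TPM. Sprr2g and Lce3e had counts in 1 library each, 9 in replicate 1 and 11 in replicate 3. Without replicate 3 the mean of Lce1k was 0.990 TPM. Summed over all members, the level was 10790, 12873 and 12941 TPM in replicates 1, 2 and 3, or 1.08%, 1.29% and 1.29% of each library's TPM.

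**Figure D1:**
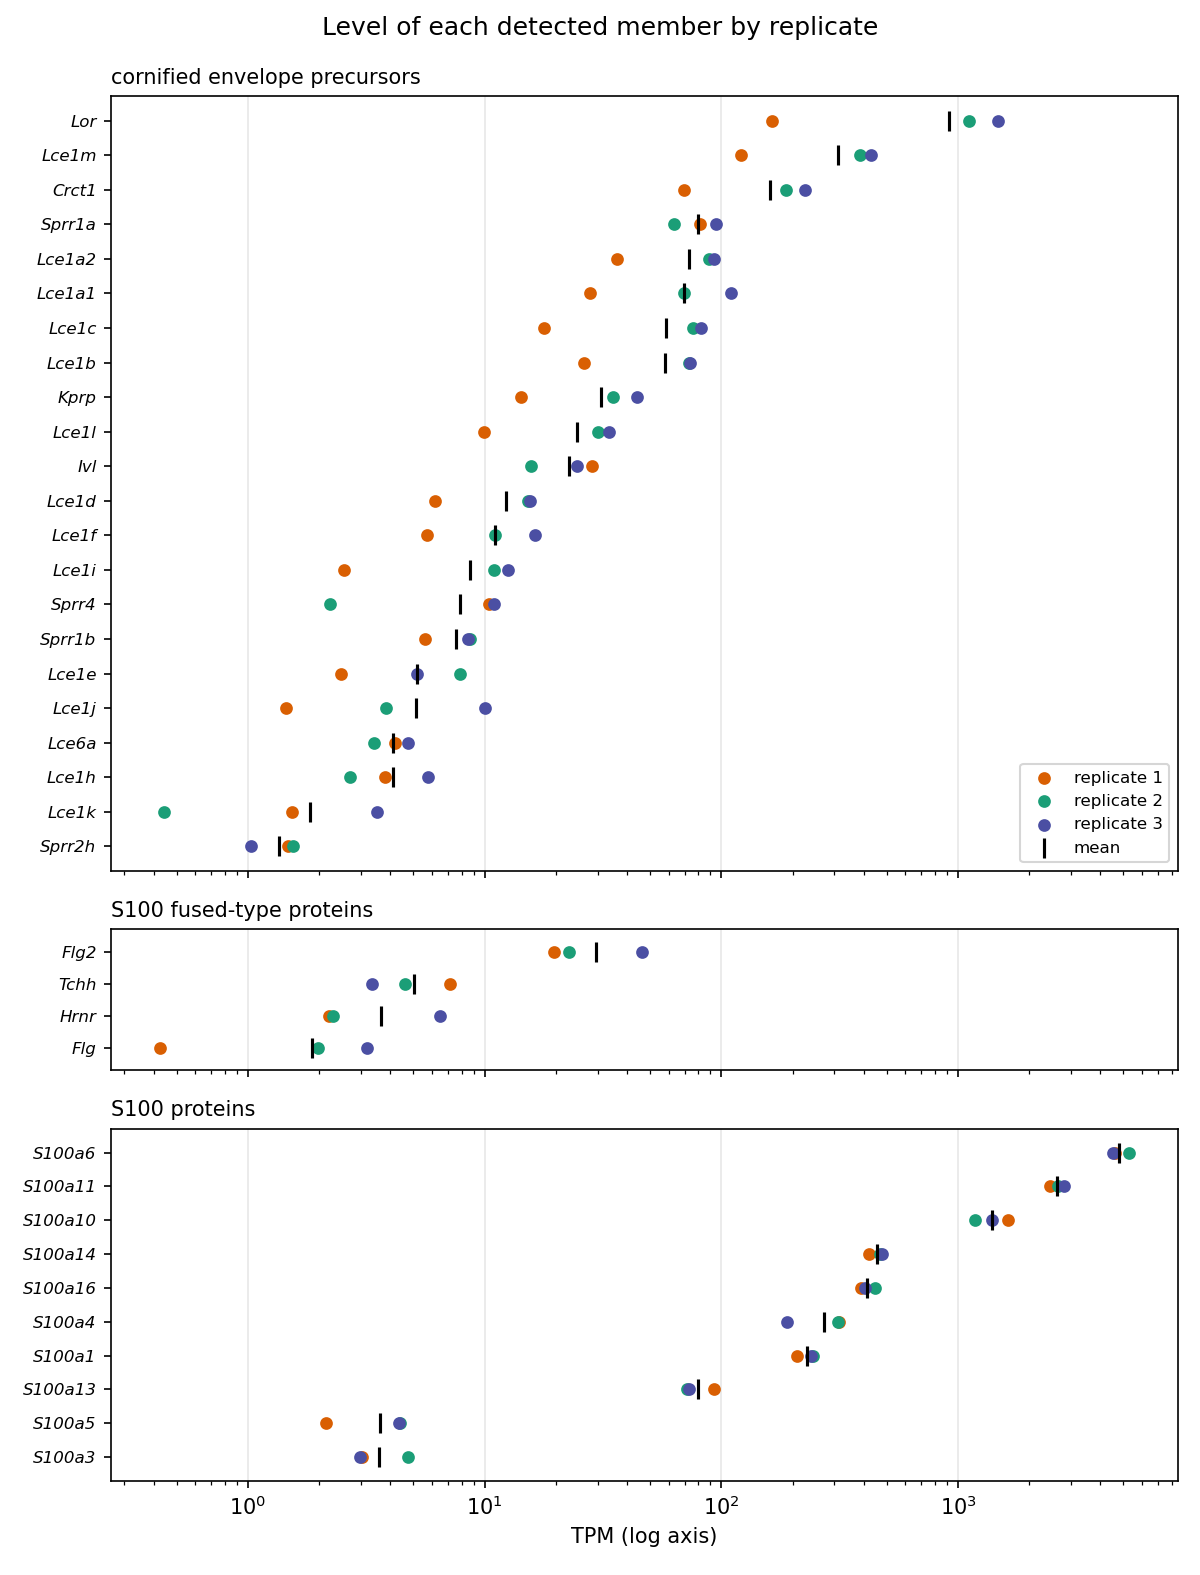
TPM of the 36 members with a mean of at least 1 TPM in each replicate (coloured points, log axis), with their mean (black mark), in 3 panels by role. S100 points lie close together, while for Lor, Crct1, Kprp and most Lce1 genes replicate 1 lies to the left of the others.

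Loricrin was the highest envelope precursor. Lor (ENSMUSG00000043165, chr3:92080271-92083142, minus strand) had 164, 1112 and 1476 TPM in replicates 1, 2 and 3, from 3138, 27078 and 40493 counts. Replicates 2 and 3 were thus high and replicate 1 low, by 9.02-fold between the extremes, and the exact 95% Poisson intervals of the levels were 158 to 169, 1098 to 1125 and 1461 to 1490 TPM. These intervals cover counting error only. Lor made up 25.4% of the summed precursor level in replicate 1, 50.4% in replicate 2 and 52.96% in replicate 3. Its mean of 917 ± 677 TPM (SD, n = 3) placed it at rank 143 of all genes.

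Involucrin, the early scaffold, was far lower and did not share that order. Ivl had 28.4, 15.7 and 24.5 TPM, so its highest value was in replicate 1 and its lowest in replicate 2. The ratio of Lor to Ivl was 5.77 in replicate 1, 71.0 in replicate 2 and 60.3 in replicate 3. Against Krt10, a keratin of the spinous layer, Lor had ratios of 0.139, 0.700 and 0.507, and Ivl had ratios of 0.0240, 0.00986 and 0.00840. Against that keratin Lor was lowest in replicate 1 and Ivl was highest there.

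The promoters of both genes are shown here because they carry the same kinds of letters although the order of their replicates differed. The windows come from RefSeq (GRCm38.p6), run from 250 bases before to 50 after the gene start, and are on the minus strand at chr3:92083093-92083392 and chr3:92573686-92573985. Capitals mark TATAAA within 40 to 20 bases of the start and the AP-1 letters TGANTCA.
Lor: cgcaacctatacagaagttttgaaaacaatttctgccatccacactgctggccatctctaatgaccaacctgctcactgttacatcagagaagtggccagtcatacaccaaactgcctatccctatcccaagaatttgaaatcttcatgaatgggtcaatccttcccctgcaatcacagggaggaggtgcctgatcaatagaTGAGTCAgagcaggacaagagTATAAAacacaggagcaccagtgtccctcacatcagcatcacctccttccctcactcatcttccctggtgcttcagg
Ivl: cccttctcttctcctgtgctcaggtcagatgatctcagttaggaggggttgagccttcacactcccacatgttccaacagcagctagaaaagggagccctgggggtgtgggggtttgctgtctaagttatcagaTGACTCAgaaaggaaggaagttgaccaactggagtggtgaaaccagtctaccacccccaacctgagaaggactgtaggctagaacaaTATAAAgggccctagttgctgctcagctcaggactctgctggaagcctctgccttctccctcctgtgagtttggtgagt

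Late cornified envelope genes were split by family. Of 14 Lce1 genes, 13 had a mean of at least 1 TPM, while of 6 Lce3 genes 0 did and 3 had no count at all. Lce1m was the highest, with 121, 384 and 428 TPM in replicates 1, 2 and 3. Lce1a2 had 36.2, 88.8 and 93.4 TPM, Lce1a1 27.9, 69.5 and 110 TPM, Lce1c 17.8, 76.1 and 81.9 TPM, and Lce1b 26.4, 73.0 and 74.1 TPM. In each of these 5 genes replicate 1 was the lowest, and its Poisson interval did not reach those of the others. The lower Lce1l, Lce1d and Lce1f had means of 24.6, 12.3 and 11.0 TPM, with replicate 1 again lowest in each. Lce1i, Lce1j and Lce1e had 20, 11 and 19 counts in replicate 1 against 37 to 141 counts in the others. In Lce1h and Lce1k the lowest value was in replicate 2, at 26 and 4 counts, and Lce6a, a lone gene beside the Lce1 cluster, had 4.20, 3.40 and 4.73 TPM.

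The Lce1 genes are tandem copies, and how the authors counted reads shared between copies is not given in the sources used here. Between 0% and 27.1% of the 50-base stretches of an Lce1 gene's transcripts occur in transcripts of another gene, and between 12.1% and 49.3% of those of an Lce3 gene. Values of single copies are therefore uncertain, but Lce1m and the neighbouring Crct1 share no such stretch with any other gene.

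Bases just before the start of the Lce1 genes are shown beside those of Lor, because most Lce1 genes carry a common variant of the TATA letters there. Each line gives the 45 bases before the RefSeq start, 5′ to 3′ on the gene's strand, with TATAAA or AATAAA in capitals.
Lor: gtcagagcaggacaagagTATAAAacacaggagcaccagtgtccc
Lce1m: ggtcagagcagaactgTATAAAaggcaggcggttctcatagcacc
Lce1a2: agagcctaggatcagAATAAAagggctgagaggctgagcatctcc
Lce1b: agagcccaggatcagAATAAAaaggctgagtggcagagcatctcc
Lce1c: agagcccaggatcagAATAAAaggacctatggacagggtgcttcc
Lce1i: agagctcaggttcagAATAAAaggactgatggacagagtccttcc
Lce1a1: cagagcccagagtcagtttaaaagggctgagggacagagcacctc

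The letters AGAATAAAA, with their first base 40 to 20 bases before the start, stood in 9 of 13 Lce1 promoters and in 11 of 27025 promoters of all genes (0.0407%). They were searched for after the sequences had been seen. Lce1m and Lce1d carried TATAAA in the same window instead, at 29 and 30 bases before the start, and Lce1a1 and Lce1l carried neither. Lce1a1, Lce1l and Lce1m were all lower in replicate 1 than in both others by more than 1 on the log2(TPM + 1) scale, as were Lce1d and, among the 9 genes with the variant, Lce1a2, Lce1b, Lce1c and Lce1i. The other 5 with the variant, Lce1e, Lce1g, Lce1h, Lce1j and Lce1k, were not, and Lce1h and Lce1k were lowest in replicate 2. With a pseudocount of 0.1 Lce1e and Lce1j also passed that limit, and Lce1g had only 4, 12 and 17 counts.

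Crct1 and Kprp, further envelope-associated genes of the region, had the same order of replicates as Lor. Crct1, a cysteine-rich protein, had 69.5, 187 and 227 TPM in replicates 1, 2 and 3. Kprp, a proline-rich keratinocyte protein, had 14.3, 35.0 and 44.1 TPM. In both genes replicate 1 was the lowest and replicate 3 the highest, and the Poisson intervals of replicate 1 (64.0 to 75.3 and 12.9 to 15.7 TPM) did not reach those of the others.

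The small proline-rich genes followed another pattern. Sprr1a had 81.6, 63.0 and 94.7 TPM, a mean of 79.8 ± 15.9 (SD, n = 3), with replicate 2 lowest. Sprr1b had 5.59, 8.71 and 8.51 TPM, and Sprr4 had 10.4, 2.21 and 10.9 TPM from 26, 7 and 39 counts. Sprr1a, which is induced in stressed as well as in differentiating epidermis, thus made up 12.6% of the precursor level in replicate 1 but 2.86% and 3.40% in replicates 2 and 3. Its level itself varied by 1.50-fold, so these shares differ mainly in their denominator, which holds Lor.

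Nearly all of the Sprr2 family was at or below the limit of detection at this depth. Of 13 Sprr2 genes, Sprr2h alone had a mean of at least 1 TPM (1.48, 1.55 and 1.03 TPM, from 12, 16 and 12 counts), and 8 had no count. The whole family held 27, 31 and 23 counts in replicates 1, 2 and 3. Sprr3 and Lelp1 had no count either. For the 14 members without a count, the limit that 0 counts allow (3 counts) lay between 0.0648 and 0.925 TPM per library, depending on gene length and depth. Sprr2a1, Sprr2a2 and Sprr2a3 share 96.3%, 96.5% and 61.1% of their 50-base stretches with other genes, so reads assigned to several places could be missing from them.

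Most Sprr2 promoters carried the same 3 sets of letters, and that of Sprr2d is shown as an example from this little-detected family (0, 6 and 0 counts). It lies at chr3:92338890-92339189 on the plus strand of GRCm38.p6, and capitals mark TGANTCA, the octamer ATGCAAAT (here on the opposite strand) and TATAAA.
Sprr2d: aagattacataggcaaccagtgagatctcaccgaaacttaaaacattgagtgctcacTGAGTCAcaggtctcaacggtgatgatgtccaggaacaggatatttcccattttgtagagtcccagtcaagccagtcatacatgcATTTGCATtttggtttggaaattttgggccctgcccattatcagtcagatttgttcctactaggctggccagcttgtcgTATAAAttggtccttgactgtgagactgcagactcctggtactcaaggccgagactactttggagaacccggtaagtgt

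All 3 sets of letters together were found in 7 of 10 Sprr2 promoters and in 9 of 27025 promoters of all genes. Over the 54 members with a RefSeq promoter, TGANTCA (on either strand, as for the letters that follow except TATAAA) stood in 17 against 7.93% of all promoters. ATGCAAAT stood in 7 against 1.75%, all 7 of them Sprr2 genes. TATAAA at 40 to 20 bases before the start, searched on the gene's strand only, stood in 18 of 54 against 2.22% of all. Of the other letters searched, AACCNGTT of Grainyhead-like factors stood in 2 (2.01% of all), GGGNGTGG of Klf4-like factors in 4 (17.6%) and the E-box CANNTG in 43 (72.15%). None of 13 Lce1 promoters held TGANTCA or ATGCAAAT. Tandem copies are not independent cases, so these counts describe the sequences and are no test. CANNTG can overlap any of the others except TATAAA.

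Among the fused-type genes, which contribute to the keratin matrix and the granules of late keratinocytes, Flg2 was the highest with 19.6, 22.8 and 46.5 TPM in replicates 1, 2 and 3. Flg, filaggrin itself, had 0.424, 1.99 and 3.20 TPM from 86, 512 and 928 counts, and Hrnr (hornerin) had 2.20, 2.30 and 6.47 TPM. For Hrnr the Poisson intervals of replicates 1 and 2 overlapped (1.94 to 2.48 and 2.06 to 2.55 TPM). By value, Flg2, Flg and Hrnr were lowest in replicate 1 and highest in replicate 3. Tchh (trichohyalin), known from the inner root sheath of the hair, had the opposite order, with 7.17, 4.59 and 3.33 TPM and intervals that did not overlap. Inner root sheath keratins were low. Of Krt25, Krt27, Krt28, Krt71, Krt72 and Krt73, 2 had a mean of at least 1 TPM, Krt72 had no count, and their summed level ran from 7.95 to 10.9 TPM with the highest value in replicate 1. Crnn and Rptn had at most 14 and 6 counts in a library, and Tchhl1 had none. The length that the authors used for Flg2, 7687 bases, is shorter than the 20803 exonic bases of the annotation used here, and its level per length depends on that choice.

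The S100 genes were the abundant part of the list and varied least. S100a6 (calcyclin) had 4621, 5280 and 4510 TPM, a mean of 4804 ± 416 (SD, n = 3), and rank 24 of all genes. S100a11, a partner of annexins, had 2626 ± 178 TPM, and S100a10, which binds annexin A2, had 1621, 1176 and 1395 TPM. The gene for that partner, Anxa2, had 1318, 1345 and 1426 TPM. The epithelial S100a14 and S100a16 had 455 ± 30.5 and 413 ± 28.7 TPM, S100a1 had 230 ± 18.9 TPM and S100a13 had 79.5 ± 12.0 TPM. S100a4, often found in motile and mesenchymal cells, had 313, 310 and 190 TPM, with replicate 3 apart from the others. The 8 S100 genes with a mean of at least 10 TPM differed by 1.14- to 1.65-fold between their highest and lowest replicate, whereas the 8 Lce1 genes above that level differed by 2.52- to 4.60-fold.

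Some S100 levels carry limits of annotation. In the annotation used here, 51.7% of the exonic bases of S100a4 overlap Gm42674, which had no count, and 41.1% of the 50-base stretches of S100a11 also occur in Gm12854, Gm7665 or Gm29240. S100a3, known from the hair cuticle, had 3.05, 4.74 and 2.98 TPM over a deposited length of 5660 bases. S100a5 had 2.15, 4.40 and 4.35 TPM from 10, 26 and 29 counts.

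The calprotectin genes S100a8 and S100a9, products of neutrophils and of inflamed epidermis, were almost absent. S100a8 had 2, 0 and 0 counts and S100a9 had 3, 0 and 4 counts. Of 7 neutrophil markers none reached a mean of 1 TPM, Elane, Ly6g and Ngp had no count, and their summed level ran from 0.252 to 0.904 TPM. The 5 markers of other immune cells summed to between 0.401 and 1.02 TPM with Lyz2 at 0, and the 5 fibroblast markers to between 0.511 and 0.593 TPM with Lum and Dpt at 0. S100a2 had 1 count in all. S100a7a, an S100 gene of the same cluster that the rule does not take, had 26.5, 4.35 and 2.64 TPM, with replicate 1 high. Of the S100 genes elsewhere, S100b, S100g and S100z had means of 0.589, 0.101 and 0.585 TPM.

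The sums over each role differed in how far the replicates lay apart. Summed precursor levels were 645, 2204 and 2786 TPM in replicates 1, 2 and 3, a mean of 1879 ± 1107 (SD, n = 3). Fused-type genes summed to 29.8, 31.7 and 60.0 TPM, and S100 genes to 10115, 10637 and 10095 TPM. On the deposited TPM the precursors therefore differed by 4.32-fold and the S100 genes by 1.05-fold between the highest and the lowest library. S100a6, S100a11 and S100a10 carry most of the S100 sum, as Lor carries much of the precursor sum. Within a role the order varied: among detected precursors Ivl, Sprr1a, Sprr4, Sprr2h, Lce6a, Lce1h and Lce1k were not lowest in replicate 1. The Sprr2 genes summed to 3.43, 2.43 and 1.28 TPM from 27, 31 and 23 counts, too few to read an order.

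**Figure D2:**
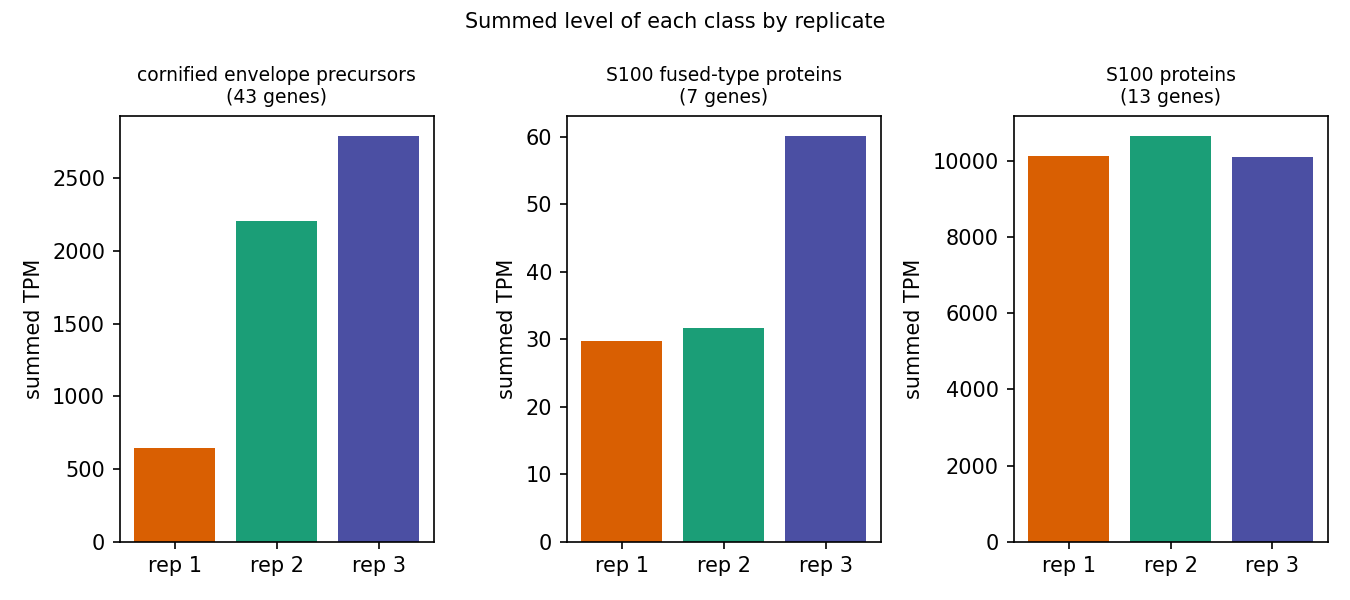
Summed TPM of each role class in each replicate (bars from 0, own scale per panel). Precursors reach 645 TPM in replicate 1 and 2786 TPM in replicate 3, while S100 genes stay between 10095 and 10637 TPM.

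Among the 36 detected members, 23 had their highest TPM in replicate 3, where 20.4% of all detected genes had theirs, and 5 in replicate 1, where 59.6% of all had theirs. The remaining 8 were highest in replicate 2, against 20% of all. For precursors the numbers were 18 of 22 in replicate 3 and 1 in replicate 1 (Ivl), and for S100 genes 2 and 3 of 10. Replicate 1 held the lowest value of 23 members (25.3% of all genes), replicate 2 of 8 (34.0% of all) and replicate 3 of 5 (40.6% of all).

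A larger gap was counted where a replicate lay more than 1 below or above both others on the log2(TPM + 1) scale. Replicate 1 was lower in this sense for 12 of 36 members, against 2.26% of all detected genes and 0.536% of protein-coding ones. These were Lor, Lce1m, Crct1, Lce1a2, Lce1a1, Lce1c, Lce1b, Kprp, Lce1l, Lce1d, Lce1i and Flg. It was higher for 0 members, against 10.6% of all. Sprr4 was lower in replicate 2 (1.16% of all), and Hrnr and Lce1j were higher in replicate 3 (1.29% of all). Replicate 2 was higher for 0 members (0.527% of all) and replicate 3 lower for 0 (1.59% of all). Relative to the mean of the others, replicate 1 had a median difference of -1.25 for the detected precursors, from -2.96 for Lor to 0.89 for Sprr4, and of -0.14 for the S100 genes. With TMM scaling the median of all genes moved from 0.24 to 0.01 and that of the members from -0.59 to -0.79. In bulk samples fewer cells of a type and less RNA per cell cannot be told apart.

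**Figure D3:**
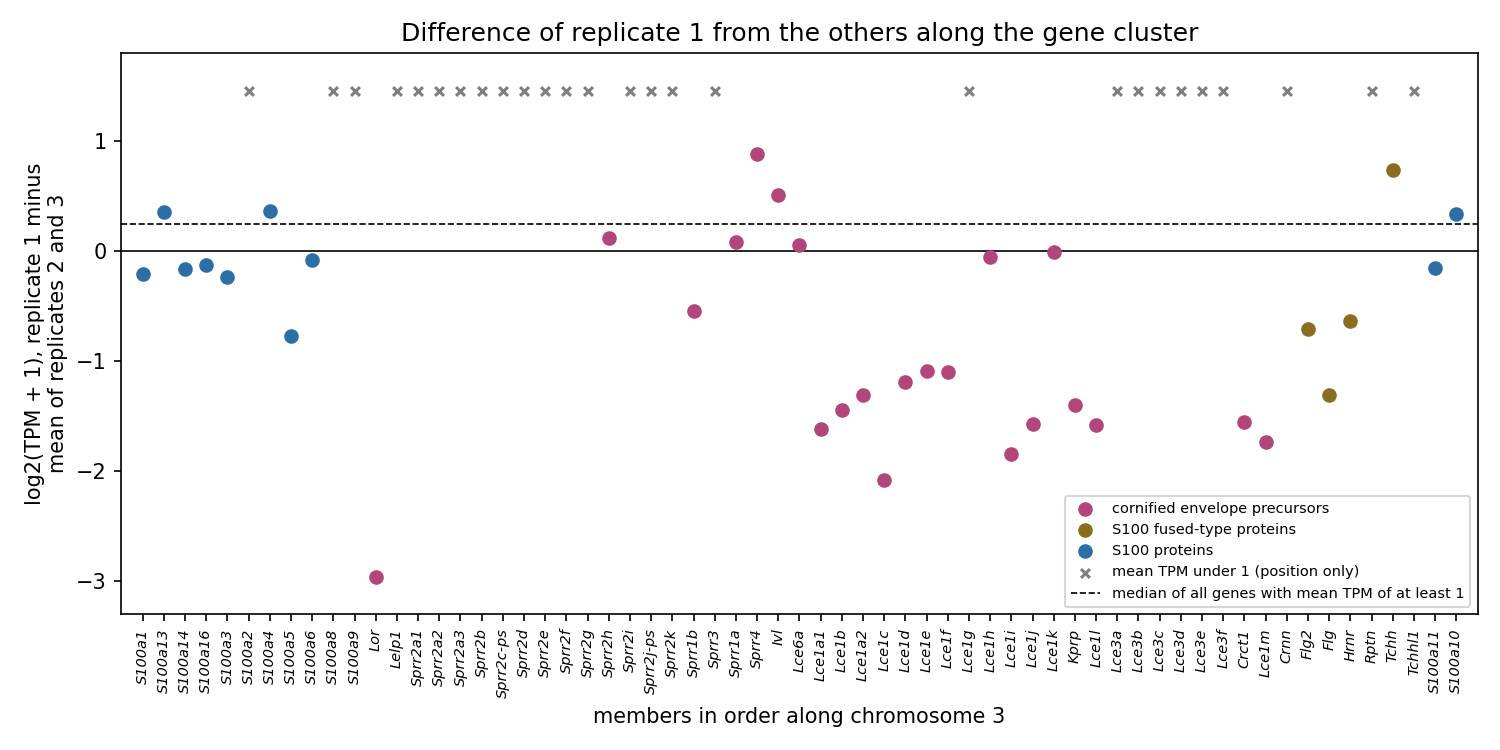
Difference of replicate 1 from the mean of replicates 2 and 3 on the log2(TPM + 1) scale for each detected member, in order along chromosome 3 (points, coloured by role), with members under 1 TPM as crosses that show position only and the median of all genes as a dashed line. Lor lies lowest at -2.96, most Lce1 genes, Kprp and Crct1 lie below -1, down to -2.09 for Lce1c, and the S100 genes at both ends lie between -0.77 and 0.37.

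Low values of replicate 1 were not contiguous on the chromosome. Between Lor and the Lce1 genes lie Sprr1a, Sprr4, Ivl and Lce6a, for which replicate 1 was 0.08, 0.89, 0.51 and 0.05 above the mean of the others on that scale, and Sprr1b, for which the difference was -0.54. Of 14 further protein-coding genes inside the span, 8 had a mean of at least 1 TPM, where 54.9% of all protein-coding genes did. The highest of them, 2310050C09Rik and 2310046K23Rik, both near the Lce1 genes or Ivl, had 60.3, 91.5 and 105 TPM and 11.1, 44.6 and 31.8 TPM, with replicate 1 lowest in each.

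Most other genes of keratinocyte differentiation examined were also highest in replicate 3. Of 25 genes for cross-linking enzymes, envelope scaffold, suprabasal keratins, corneodesmosomes, proteases and barrier lipids, 20 were highest in replicate 3 and 3 in replicate 1. Over all detected genes these shares were 20.4% and 59.6%. The median difference of replicate 1 over the 25 genes was -0.52. Of them 4 lay more than 1 below both others (Tgm3, Cdsn, Asprv1 and Alox12b), against 2.26% of all detected genes and 0.536% of protein-coding ones. Krt10 had 1181, 1588 and 2910 TPM, and Asprv1, a protease that processes filaggrin, had 103, 220 and 361 TPM. Tgm1, the transglutaminase of the envelope, had 7.65, 10.3 and 23.9 TPM, while Tgm5 had 842, 997 and 1026 TPM. Ppl (periplakin), of the envelope scaffold, went the other way with 197, 84.5 and 98.6 TPM, and the 4 scaffold genes together were highest in replicate 1 (302, 197 and 261 TPM). The summed suprabasal keratins were 2410, 3272 and 5998 TPM in replicates 1, 2 and 3. Basal keratinocyte markers, which are no differentiation genes, summed to 19591, 28870 and 25564 TPM and were also lowest in replicate 1. Their differences were -0.51 for Krt5, -0.37 for Krt14, -0.34 for Itgb4 and -0.11 for Trp63 on the log2(TPM + 1) scale. Stem cell markers, mostly Krt15, summed to 20629, 26819 and 25541 TPM, lowest there too. Ly6a was also lowest in replicate 1. Upper follicle markers summed to 4659, 4193 and 3161 TPM in replicates 1, 2 and 3, of which Krt17 alone held 4014, 3719 and 2763 TPM. Defb6 and Lrig1 were also highest in replicate 1. Krt79 (140, 146 and 124 TPM) and Lgr6 (127.2, 127.3 and 114 TPM) were highest in replicate 2. The part of other cell types in the low values of replicate 1 was not tested.

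The authors' deposited table holds a log2 fold change per gene, which from the names of columns not analysed here is taken to compare these libraries with libraries of the bulge, the stem cell region of the follicle. All 2552 genes without a count here had a negative value there, so a positive one is higher in the cells described. Of the 47 members with an adjusted p-value in the authors' deposited table, 25 were higher at an adjusted p under 0.05, against 23.6% of all genes and 30.6% of protein-coding ones. One direction prevailed, since 1 member was lower, against 31.9% of all genes and 25.8% of protein-coding ones. Those higher were 14 of 29 precursors, 2 of 6 fused-type genes and 9 of 12 S100 genes in the authors' deposited table. Among the 35 members with at least 20 counts in a library they were 25, against 32.3% of all such genes, and 0 were lower, against 26.2%. That limit was set on these libraries alone, so it favours genes high in them and drops Sprr2d, the member called lower. The median log2 fold change in the authors' deposited table was 2.21 over the 47 members and -0.36 over the 20264 genes with an adjusted p-value. Over the 36 detected members it was 2.56 and over all detected genes 0.25, but detection too was set on these libraries alone. Markers of other follicle cells moved in the same comparison. Of 4 sebaceous gland markers, Pparg (under 1 TPM), Dgat2 and Mgst1 were higher by 3.12, 1.99 and 1.10 in the authors' deposited table. Scd1, with -0.45, did not pass. Of the upper follicle markers, Krt79, Krt17 and Defb6 were higher by 4.79, 3.86 and 5.25 in the authors' deposited table (adjusted p = 3.97e-48, 3.94e-66 and 6.87e-17). Lrig1 of that list was higher by 1.15, and Lgr6, with -0.04, did not pass. Of basal markers Krt14, Krt5 and Itgb4 were higher by 2.36, 1.18 and 0.57 and Trp63 had -1.47 in the authors' deposited table. Of stem cell markers Krt15 and Cd34 were higher by 1.03 and 1.33, while Lgr5 and Sox9 were lower with -1.47 and -0.93 in the authors' deposited table. Lhx2, with 0.20, did not pass. The part of these cell types in the members' fold changes was not tested.

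The largest values among the members were those of envelope precursors. In the authors' deposited table Lce1a2 had a log2 fold change of 6.70 (adjusted p = 1.03e-14) and Lor one of 5.78 (adjusted p = 2.15e-07). Lce1i, Lce1a1, Lce1m, Lce1c, Crct1, Lce1b, Lce1l and Lce1j lay between 4.90 and 4.06 in the authors' deposited table, Lce1m with the smallest adjusted p of them (6.22e-23). Lce1d, Lce1f and Lce1h followed with 3.53, 2.59 and 2.38 in the authors' deposited table. Lce1k, Lce6a, Lce1e and Lce1g had 2.45, 2.22, 1.85 and 1.37 there without passing the threshold. Ivl, which did not share the replicate order of Lor, was also higher, by 3.17 in the authors' deposited table (adjusted p = 3.36e-11). Sprr1a, Sprr1b, Sprr4 and Kprp did not pass the threshold in the authors' deposited table, with log2 fold changes of -0.38, 0.13, 0.47 and 0.68. Kprp thus had the replicate order of Lor without a call in that comparison.

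The S100 genes called higher lay between 1.38 and 3.40 in the authors' deposited table, and S100a6, S100a16 and S100a14 had the smallest adjusted p-values of the members. The authors' deposited table gives S100a6 a log2 fold change of 3.13 (adjusted p = 1.89e-49), S100a16 one of 3.40 (adjusted p = 5.57e-43) and S100a14 one of 3.19 (adjusted p = 1.74e-42). S100a4, S100a13, S100a1, S100a10, S100a3 and S100a11 had 3.39, 2.52, 2.47, 2.21, 1.94 and 1.38 in the authors' deposited table. S100a5, S100a8 and S100a9 did not pass, with -0.60, -1.97 and -0.63 in the authors' deposited table. Of the fused-type genes, Flg2 and Flg were higher by 2.81 and 1.38 in the authors' deposited table (adjusted p = 0.00583 and 0.0388), and Hrnr and Tchh had 0.92 and 0.18 without passing.

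**Figure D4:**
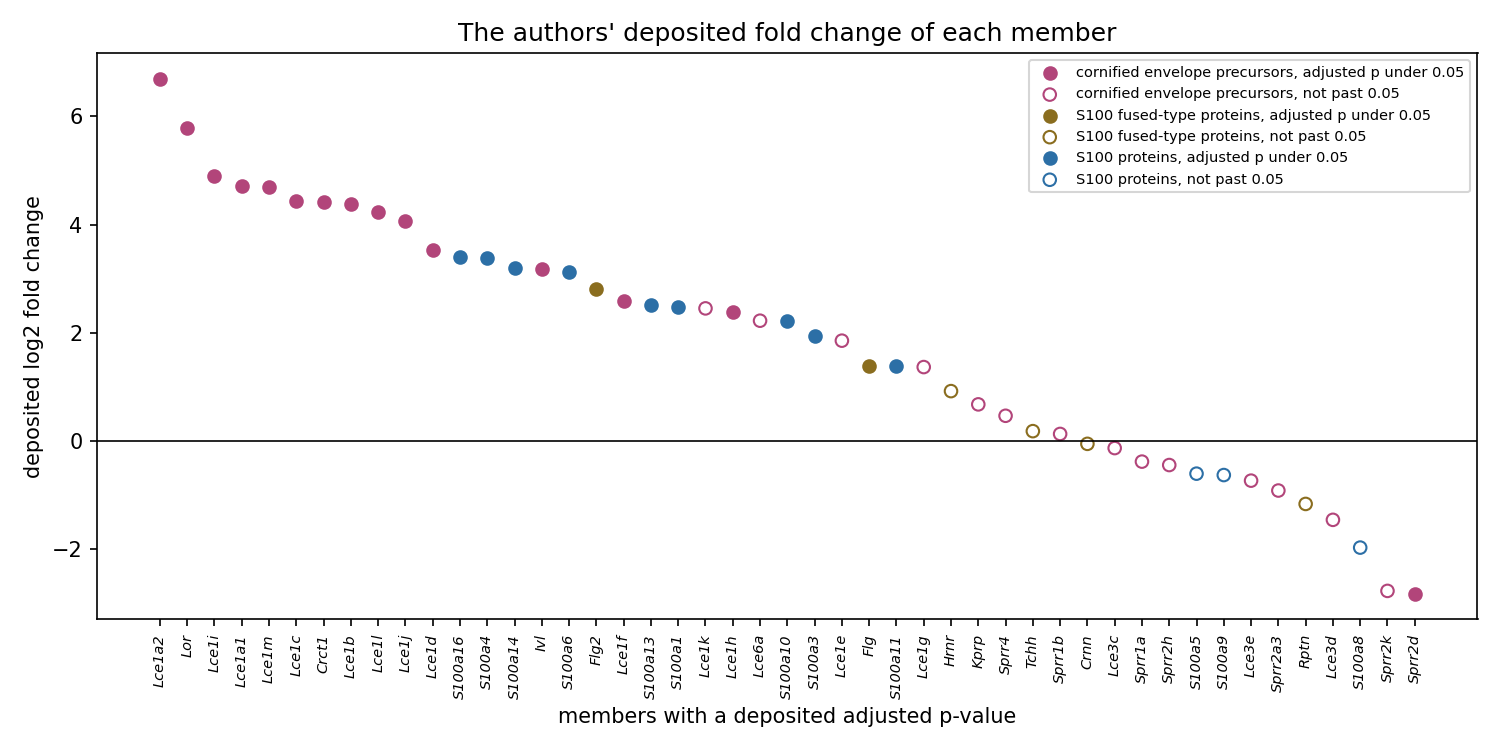
The authors' deposited log2 fold change of the 47 members with an adjusted p-value, in falling order (filled points, adjusted p under 0.05; open points, not past it; colours by role). Lce1a2 at 6.70 and Lor at 5.78 lead, S100 genes called higher lie between 1.38 and 3.40, and Sprr2d at -2.82 is the filled point below 0.

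The member called lower, Sprr2d, had a log2 fold change of -2.82 in the authors' deposited table (adjusted p = 0.0362) and rested on 6 counts here. Of the 25 partner genes, 15 were higher, 2 lower (Tgm5 and Dsg1b) and 8 past neither limit in the authors' deposited table, with a median log2 fold change of 1.59. There 23.6% of all genes were higher and 31.9% lower, and of protein-coding ones 30.6% and 25.8%. Krt10, Krt77 and Krt1 had 3.29, 2.59 and 2.49 in the authors' deposited table. Leaving out replicate 1 was not possible for these values, since the fold change was deposited as a whole.

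The authors' deposited table also gives each gene a number headed H3K27me3, a histone mark of Polycomb repression, whose unit is not given in the sources used here. Lce3d was the 1 member with a value above 0, against 8.06% of all genes, and its value of 3162 in the authors' deposited table was under 7605, the median of those 3591 genes in which it exceeded 0. Lce3d had 0, 0 and 4 counts. The 13 protein-coding members without any count had a value of 0 throughout, where 13.6% of 5505 such genes in all had one above 0. None of the 14 protein-coding genes between the members had a value above 0 either. Of all protein-coding genes, 20.6% of those under 1 TPM and 3.52% of those from 1 TPM had one.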

How the data were processed

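Polyadenylated RNA of 3 samples of 1 group was measured. The authors' table gives, per the file headers, a count and a TPM value for each gene and library, a log2 fold change, an adjusted p-value, a score and an H3K27me3 number of unstated unit. The deposited score was not used. TopHat2, SAMtools, FastQC, DESeq and DESeq2 and the builds mm10 and GRCm38 are listed, without roles, per the submitters' processing notes, and strand setting and handling of shared reads are not given in the sources used here. A further 6 columns of per-sample values match no sample and were not used.

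Recomputing TPM from counts and lengths gave the deposited TPM to within 4.72e-06. Of 44625 entries, 44548 were kept, the one with the highest mean TPM per symbol. Coordinates and gene types come from GENCODE M21 (GRCm38) by identifier, and promoters from RefSeq (GRCm38.p6) by symbol, where 54 of 63 members matched. Shared stretches were counted as 50-base words on either strand of all annotated transcripts. Fits across groups were not possible with 1 group, so no test was run. Values are per replicate with the SD, exact 95% Poisson intervals, and a pseudocount of 1 on log2 scales. TMM factors came from edgeR 4.0.16 and size factors from DESeq2 1.42.0. Depth ranged from 29283936 to 39198620 counts. Members named are those with a mean of at least 10 TPM, a deposited adjusted p-value under 0.05 with 20 or more counts in a library, an H3K27me3 value above 0 with a mean of at least 1 TPM, or a place among the 4 next to either side of 1 TPM. Of listed genes outside the rule, up to 4 a list were to be named, from 1 TPM. Other genes named were chosen after their values were seen. The members and lists were chosen with earlier results of these data known.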

Additional observations from a re-analysis of the deposited data

How the results depend on the processing

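The 36 detected members became 28 with a limit of 5 TPM and 46 with one of 0.1 TPM, and from 35 to 37 without a replicate in turn. The summed precursor level ran from 1425 to 2495 TPM when a replicate was left out. With TMM scaling and DESeq2's size factors the SD of the S100 sum rose from 308 to 1181 and 1254 TPM. That of the precursor sum rose from 1107 to 1240 and 1248 TPM. Members highest in replicate 1 numbered 2 with TMM scaling, 2 with DESeq2's size factors and 10 without a filter on low values, beside 42.4%, 41.2% and 59.3% of all genes. With a pseudocount of 0.1, members lower in replicate 2 numbered 2 and those higher in replicate 3 numbered 4, and with TMM scaling or DESeq2's size factors the latter also numbered 4. Without a filter on low values 1 member was higher in replicate 1. Members lower in replicate 1 numbered from 12 to 15 over the pseudocount, filter and scaling alternatives. Keeping the 22 detected members that share at most 5% of their 50-base stretches with other genes, an alternative chosen after seeing the data, left 5 lower in replicate 1 and 11 highest in replicate 3, out of fewer genes counted. Members lower in the authors' deposited table numbered 0 at an adjusted p under 0.01 and 0 with at least 20 counts, and members with an H3K27me3 value of at least 5000 numbered 0. No paired analysis was possible because the samples form 1 group. Depth limits the 13 members with counts but under 1 TPM, for which order among replicates cannot be read.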
